A study of Homo sapiens with 5 samples.

Results

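The 8 genes described here encode the subunits of the transcription factor AP-1 (FOS, FOSB, FOSL1, FOSL2, JUN, JUNB and JUND) and the related factor ATF3. They were chosen by symbol from a table of 27933 gene symbols, and all 8 were found in it. RNA sequencing was run on HaCaT, an established human keratinocyte line, in 3 libraries labelled as AHNAK knockdown and 2 labelled as control, all grown in DMEM with fetal bovine serum. AHNAK is a giant scaffold protein, and the series title names it as regulated by oncostatin M and its receptor. The columns of the knockdown libraries are named si, those of the controls NC, and the agent used in the controls is not described. The labels call the cells a knockdown and the series' design text a knockout, and no label says whether the libraries came from separate cultures, so every p-value rests on a spread between libraries that may be technical.

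AP-1 is a dimer of basic leucine zipper proteins: JUN proteins pair with each other or with FOS proteins, while FOS proteins need a JUN partner to bind DNA. FOS, FOSB and JUN are early-response genes, switched on within minutes of growth factor, cytokine or stress signals through MAP kinases, and FOSL1 (FRA-1) and FOSL2 (FRA-2) lack the strong activation domain of FOS and usually follow later. In epidermis, AP-1 takes part in proliferation, wound repair and the expression of cornified envelope genes, and ATF3 is a stress-induced partner of JUN proteins that often represses transcription.

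The authors deposited FPKM, fragments per kilobase of transcript scaled to each library, so levels can be set side by side between genes, but read totals and depth are unknown. AHNAK stood at 113.9, 69.6 and 115.3 FPKM in knockdown libraries 1, 2 and 3, against 204.8 and 242.0 FPKM in control libraries 1 and 2, with its lowest value in knockdown library 2. Low values shared a common step within 2 sets of libraries, for 17.0% to 25.1% of low genes in same-set pairs and at most 3.96% in other pairs. Set A holds knockdown libraries 1 and 3 and control library 1, set B holds knockdown library 2 and control library 2, and no label describes these sets. Differences within a set rest on 1 control library each and have no test. Keratinocyte markers were abundant in every library, with a summed level over 10 markers of 4672 to 6317 FPKM in knockdown and 6676 to 8154 FPKM in control. The lists of other cell types were low: the summed level of 6 fibroblast markers was 6.12 to 10.2 FPKM in knockdown and 3.30 to 5.02 FPKM in control, and that of 5 leukocyte markers, nearly all from CD68, was 21.2 to 28.8 FPKM in knockdown and 16.2 to 18.3 FPKM in control. TYR of melanocytes was listed at 0 in all libraries, and PTPRC of leukocytes and PDGFRB of fibroblasts stayed under 0.03 FPKM. DCN of fibroblasts ran from 0 FPKM in control library 2 to 5.25 FPKM in knockdown library 2. Sums of 5 melanocyte markers (1.44 to 2.09 FPKM in knockdown, 1.93 to 2.09 FPKM in control) and 4 endothelial markers (2.06 to 2.98 FPKM in knockdown, 2.08 to 2.98 FPKM in control) overlapped. The keratinocyte, fibroblast and leukocyte sums differed between the groups without overlap, as 32% of single genes tested did. Of the 10 keratinocyte markers, 8 were lower in knockdown, where 48.7% of genes tested were lower. KRT5 and KRT14 were the most abundant of these markers in every library. Of 3 fibroblast markers tested, 2 were higher, while COL1A1 was lower (1.28 to 1.78 FPKM in knockdown, 1.94 to 2.47 FPKM in control). The part of these marker differences in the values below was not tested. In such bulk RNA, fewer cells of a type and less RNA per cell cannot be told apart.

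HaCaT transcripts of AP-1 were mostly JUNB. Over the 5 libraries JUNB averaged 209.4 FPKM, and it was the most abundant subunit in each of them, at 57.1% to 63.4% of the summed FPKM of the 7 subunits in knockdown and 53.7% to 59.5% in control. FOSL2 and FOSL1 followed at 53.4 and 48.6 FPKM on average and did not differ beyond their spread, since FOSL1 lay above FOSL2 in knockdown library 2 and control library 1 and below it in the other 3 libraries. JUND averaged 27.0 FPKM and its lowest library (20.0) lay above the highest library of JUN (16.7). JUN averaged 12.2, FOS 7.32 and ATF3 6.42 FPKM, and the ranges of FOS and ATF3 overlapped, as did those of JUN and FOS. FOSB was the lowest in every library, at 1.30 FPKM on average. On the same level scale JUNB lay at percentile 98.1 of the 12196 genes tested (mean of at least 1 FPKM), and FOSB at percentile 3.85.

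**Figure D1:**
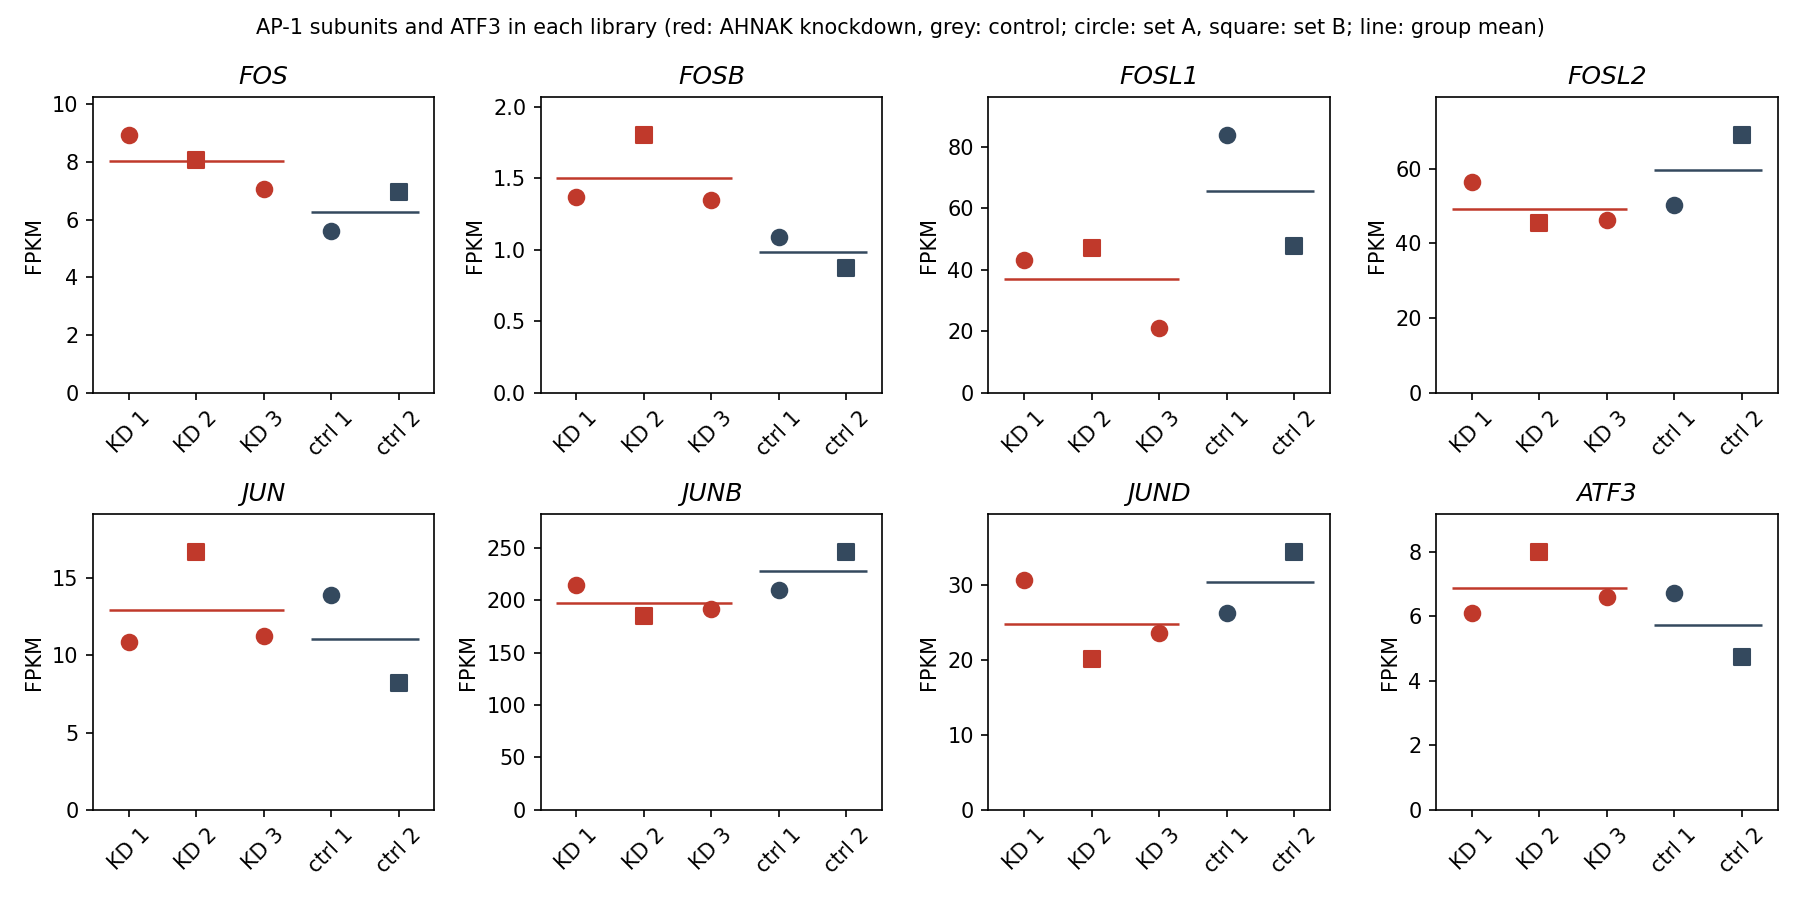
FPKM of each of the 8 genes (vertical axes, from 0) in the 3 AHNAK knockdown libraries and the 2 control libraries, with lines at group means, circles for set A and squares for set B. Each knockdown point of FOS and FOSB lies above both control points, each of FOSL1 lies below them, and the groups of the other 5 genes overlap.

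No member passed the test between knockdown and control. In limma on log2(FPKM + 0.5), Benjamini-Hochberg adjusted p-values of the 8 members ran from 0.425 to 0.741, and 0 of 12196 genes passed (0% of genes tested, with 1427 at an unadjusted p under 0.05, or 11.7%). AHNAK itself did not pass either, at a log2 difference of -1.19 (limma adjusted p = 0.372), so a member that did not pass may still differ. Of the members, 4 had a positive and 4 a negative log2 difference (knockdown minus control), where 51.3% of genes tested were positive and 48.7% negative, with a median of 0.01 against 0.01 over all genes tested. Groups did not overlap for 2 members that were higher in knockdown, FOS and FOSB, and for 1 that was lower, FOSL1. Over all genes tested 16.2% were higher and 15.8% lower without overlap, 32% in all, so a count of 3 in 8 is near that background.

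FOS and FOSB, the early-response FOS proteins with a strong activation domain, were higher in each knockdown library than in either control. FOS (ENSG00000170345.9, chromosome 14, 75278774 to 75282230, plus strand, GRCh38) stood at 8.92, 8.08 and 7.05 FPKM in knockdown libraries 1, 2 and 3, and at 5.60 and 6.95 FPKM in control libraries 1 and 2. Knockdown library 3 and control library 2 were nearly level, so the groups were parted by a small gap. The means were 8.02 ± 0.94 FPKM (SD, n = 3) in knockdown and 6.27 ± 0.96 FPKM (SD, n = 2) in control, a log2 difference of 0.33 (SE 0.16, 95% confidence interval -0.05 to 0.71, limma adjusted p = 0.475), or 0.47 (set A) and 0.20 (set B) within the sets. It was 0.19 without control library 1 and 0.48 without control library 2.

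FOSB (ENSG00000125740.13, chromosome 19, 45467995 to 45475179, plus strand) was low throughout, at 1.37, 1.80 and 1.35 FPKM in knockdown libraries 1, 2 and 3, and 1.09 and 0.87 FPKM in control libraries 1 and 2. Its highest library was knockdown library 2 and its lowest control library 2, both of set B. On the log2 scale the difference was 0.43 (SE 0.18, 95% confidence interval 0.01 to 0.86), the single member with an unadjusted p under 0.05 (limma adjusted p = 0.425), and 6.22% of genes tested were higher at that level. With array weights, which weight knockdown library 2 at 3.98 and knockdown library 3 at 0.257, FOSB passed at 0.59 (adjusted p = 0.0450), as did 11.7% of genes tested. The FOSB gene lies wholly inside the span of ERCC1, a DNA repair gene on the opposite strand that shares 0 exonic bases with it. ERCC1 was at 15.0, 17.1 and 14.8 FPKM in knockdown libraries 1, 2 and 3 and 13.6 and 12.6 FPKM in control libraries 1 and 2, a log2 difference of 0.24. Whether counting used strand is not given in the sources used here, so ERCC1 intron reads cannot be told apart from FOSB reads.

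FOSL1, the FRA-1 gene and a known target of ERK signalling through AP-1 itself, was the member that varied most. FOSL1 (ENSG00000175592.8, chromosome 11, 65892049 to 65900573, minus strand) stood at 43.2, 47.2 and 21.2 FPKM in knockdown libraries 1, 2 and 3, and at 83.8 and 47.8 FPKM in control libraries 1 and 2. Knockdown library 3 was the lowest and control library 1 the highest library, while the pair of set B was level. The means were 37.2 ± 14.0 FPKM (SD, n = 3) in knockdown and 65.8 ± 25.5 FPKM (SD, n = 2) in control, a log2 difference of -0.84 (SE 0.39, 95% confidence interval -1.76 to 0.08, limma adjusted p = 0.459). Within sets it was -1.45 (set A) and -0.02 (set B). Leaving out control library 1 gave -0.44, control library 2 gave -1.24, and knockdown library 3 gave -0.48. The residual SD of FOSL1 was 0.61 on the log2 scale, at percentile 97.9 of all genes tested.

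FOSL2, the FRA-2 gene, did not follow FOSL1. FOSL2 (ENSG00000075426.11, chromosome 2, 28392448 to 28417312, plus strand) was at 56.3, 45.3 and 46.1 FPKM in knockdown libraries 1, 2 and 3, and at 50.2 and 68.9 FPKM in control libraries 1 and 2. Control library 1 fell inside the knockdown range, and control library 2 lay above every other library. On the log2 scale the difference was -0.26 (SE 0.18, 95% confidence interval -0.70 to 0.17, limma adjusted p = 0.599), or 0.02 (set A) and -0.60 (set B) within the sets. It was -0.04 without control library 2 and -0.17 after the correction for GC content described for JUNB and JUND.

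FOS and FOSB made up more of the FOS family in knockdown libraries, at a lower family total. FOS and FOSB summed to 10.3, 10.7 and 12.5 FPKM for every 100 FPKM of FOSL1 and FOSL2 in knockdown libraries 1, 2 and 3, and to 4.99 and 6.70 in control libraries 1 and 2. The groups did not overlap, and the ratio of group means was 1.91, and 2.29 (set A) and 1.59 (set B) within the sets. This sum was formed after the values of its members had been seen, so it carries no test. FOS and FOSB were each higher and FOSL1 lower without overlap, so the separation of the ratio largely follows from that choice. Leaving out each library gave ratios from 1.67 to 2.24, which had to stay above 1 because the groups did not overlap. FOS alone made up 8.13%, 7.89% and 9.31% of FOS-family FPKM in knockdown libraries 1, 2 and 3, and 3.98% and 5.58% in control libraries 1 and 2. The share of FOSL1 in the family was 39.3%, 46.1% and 28.0% in knockdown libraries 1, 2 and 3, and 59.6% and 38.4% in control libraries 1 and 2, and these groups overlapped. The whole FOS family summed to 109.8, 102.4 and 75.7 FPKM in knockdown libraries 1, 2 and 3, and to 140.8 and 124.6 FPKM in control libraries 1 and 2, again without overlap.

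**Figure D2:**
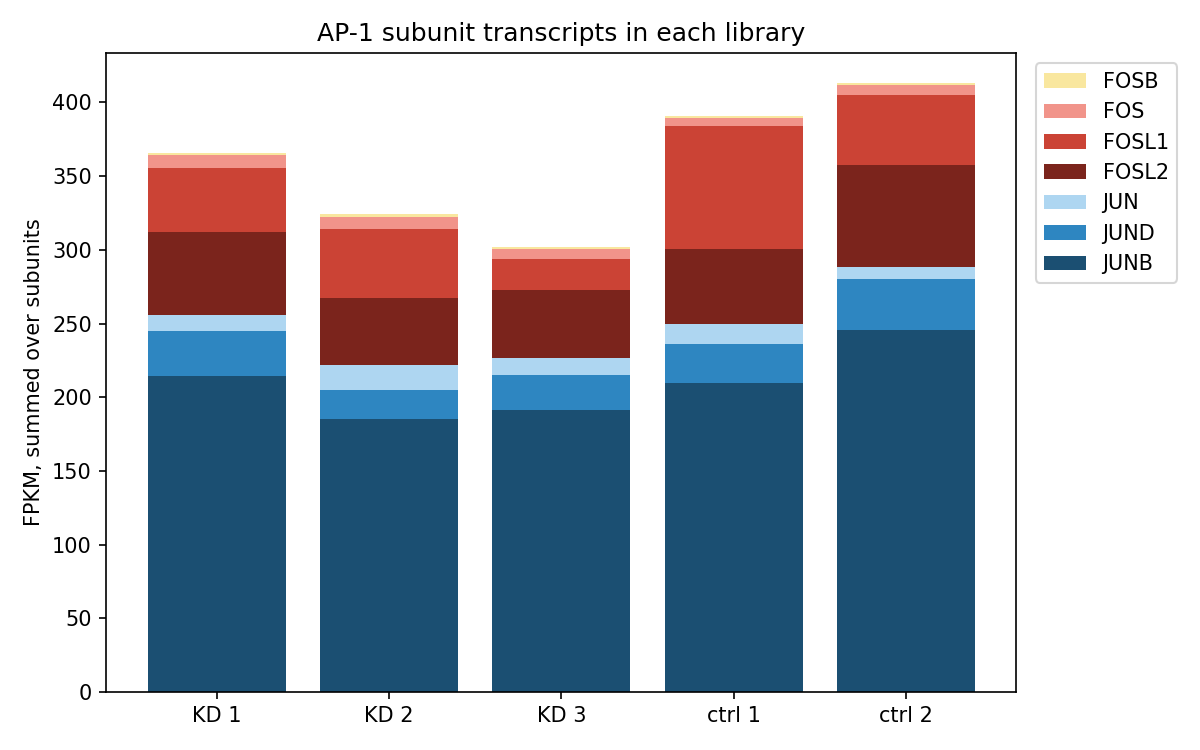
Summed FPKM of the 7 AP-1 subunits (vertical axis, from 0) in the 3 AHNAK knockdown libraries and the 2 control libraries, stacked by subunit. JUNB is the largest layer in every bar, and the bars reach 302 to 366 FPKM in knockdown and 391 to 413 FPKM in control.

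JUNB and JUND, the JUN proteins that can restrain JUN-driven proliferation, had negative differences over the 5 libraries, of larger size in set B than in set A. JUNB (ENSG00000171223.5, chromosome 19, 12791496 to 12793315, plus strand) was at 214.6, 185 and 191.6 FPKM in knockdown libraries 1, 2 and 3, and at 209.8 and 245.9 FPKM in control libraries 1 and 2. Knockdown library 1 lay above control library 1, so the groups overlapped. The log2 difference of JUNB was -0.21 (SE 0.14, 95% confidence interval -0.55 to 0.13, limma adjusted p = 0.591), or -0.05 (set A) and -0.41 (set B) within the sets. JUND (ENSG00000130522.5, chromosome 19, 18279760 to 18281622, minus strand) was at 30.6, 20.0 and 23.6 FPKM in knockdown libraries 1, 2 and 3, and at 26.3 and 34.3 FPKM in control libraries 1 and 2. Its log2 difference was -0.30 (SE 0.21, 95% confidence interval -0.80 to 0.21, limma adjusted p = 0.606), or 0.03 (set A) and -0.76 (set B) within the sets. The transcripts of both are rich in G and C, at 64.9% for JUNB and 69.7% for JUND (percentiles 96.1 and 99.5 of genes tested). Across genes, deviations of knockdown libraries 1 and 3 had Spearman's rho of 0.605 and -0.549 with GC content, and a fit corrected for GC content and length gave log2 differences of -0.12 for JUNB and -0.15 for JUND. Without control library 2 they were -0.09 for JUNB and -0.11 for JUND. JUNB lies inside the span of HOOK2 on the opposite strand and shares 259 of its 1820 exonic bases with it, so reads of the 2 cannot be told apart there; HOOK2 had a log2 difference of -0.02.

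JUN, the founding subunit and the strongest activator of its family, went in opposite directions in the 2 sets. JUN (ENSG00000177606.6, chromosome 1, 58780788 to 58784327, minus strand) stood at 10.9, 16.7 and 11.3 FPKM in knockdown libraries 1, 2 and 3, and at 13.9 and 8.20 FPKM in control libraries 1 and 2. The highest library was knockdown library 2 and the lowest control library 2, and control library 1 lay above knockdown libraries 1 and 3. On the log2 scale the difference was 0.24 (SE 0.27, 95% confidence interval -0.41 to 0.88, limma adjusted p = 0.741), or -0.32 (set A) and 0.98 (set B) within the sets, and it was -0.13 without control library 2. JUN made up 4.24%, 7.53% and 4.97% of JUN-family FPKM in knockdown libraries 1, 2 and 3, and 5.57% and 2.84% in control libraries 1 and 2. The JUN family as a whole made up 70.0%, 68.4% and 74.9% of AP-1 FPKM in knockdown libraries 1, 2 and 3, and 64.0% and 69.8% in control libraries 1 and 2, with overlap.

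ATF3, the stress-induced partner of JUN proteins, followed the library order of JUN. ATF3 (ENSG00000162772.16, chromosome 1, 212565334 to 212620777, plus strand) was at 6.09, 7.99 and 6.58 FPKM in knockdown libraries 1, 2 and 3, and at 6.73 and 4.73 FPKM in control libraries 1 and 2. As with JUN, knockdown library 2 was highest, control library 2 lowest and control library 1 second. Its log2 difference was 0.26 (SE 0.19, 95% confidence interval -0.20 to 0.71, limma adjusted p = 0.621), or -0.08 (set A) and 0.70 (set B) within the sets, and it was 0.02 without control library 2 and 0.17 after GC correction.

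**Figure D3:**
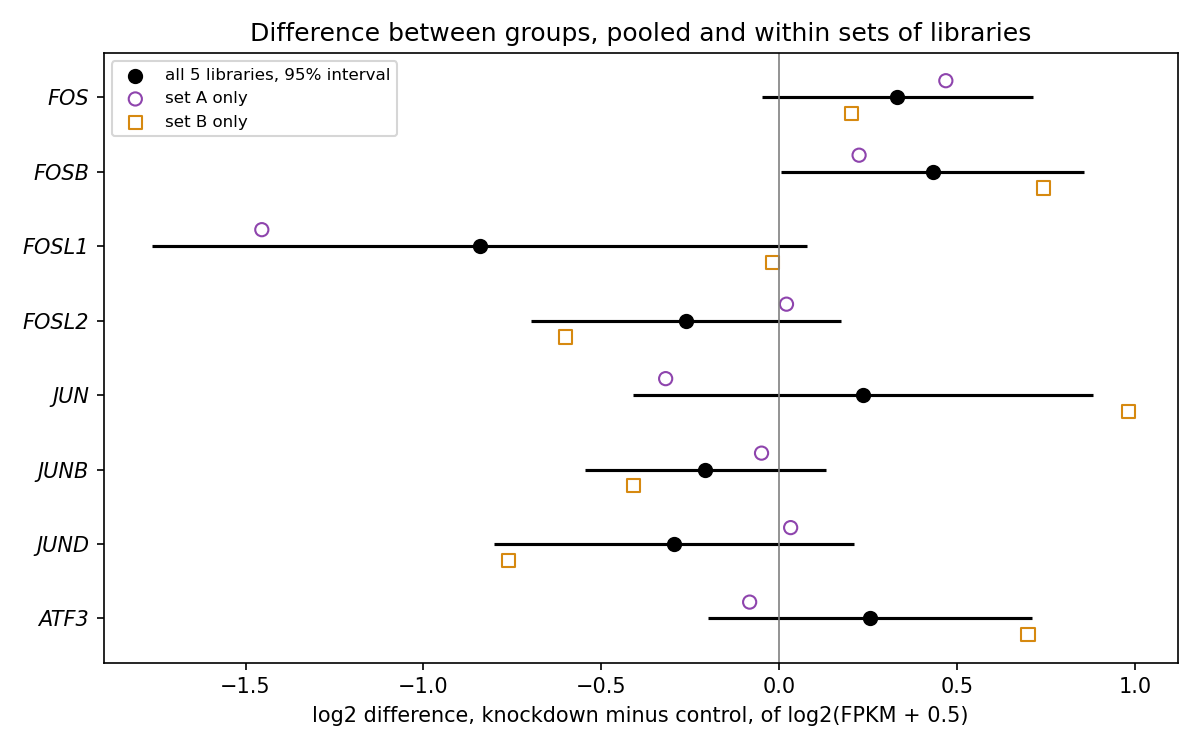
Log2 difference, knockdown minus control, of log2(FPKM + 0.5) for each of the 8 genes, as the estimate over all 5 libraries with its 95% confidence interval and as the values within set A and set B. The set values lie on opposite sides of 0 for FOSL2, JUN, JUND and ATF3, and FOSL1 is at -1.45 in set A and -0.02 in set B.

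Seen over the 5 libraries, the members formed opposing patterns. FOSL2, JUNB and JUND ranked the libraries in the same order, with control library 2 highest, then knockdown library 1, control library 1 and knockdown library 3, and knockdown library 2 lowest. Of the genes tested, 1.87% had this order. JUN and ATF3 shared another, with knockdown library 2 highest and control library 2 lowest, as 1.60% of genes tested did. FOSB had the same extremes as JUN and ATF3. In all, 6 of the 8 members had their extremes in the 2 libraries of set B, 3 in each direction, where 15.8% of genes tested were highest in knockdown library 2 and lowest in control library 2, and 10.1% the reverse. The sign of the difference was the same in both sets for 4 members (FOS, FOSB, FOSL1 and JUNB), and for 55.7% of genes tested.

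**Figure D4:**
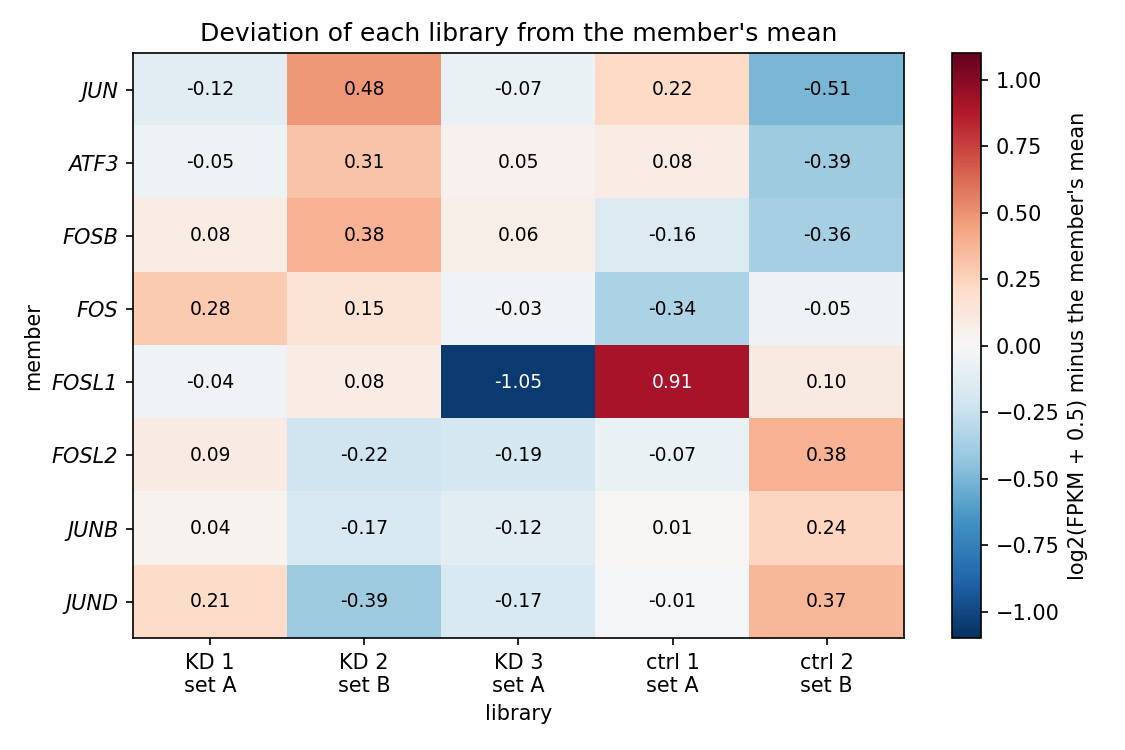
Deviation of log2(FPKM + 0.5) from each gene's mean over the 5 libraries, with knockdown libraries in the left columns and control libraries in the right columns, coloured from blue (low) to red (high). JUN, ATF3 and FOSB are highest in knockdown library 2 and lowest in control library 2, FOSL2, JUNB and JUND are the reverse, and FOSL1 runs from -1.05 in knockdown library 3 to 0.91 in control library 1.

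Promoters are shown for JUN, ATF3 and JUND, the members with a match to an AP-1 or CRE-like motif before the start site. JUN and ATF3 shared a library order, and JUND had the opposite extremes, as FOSL2 and JUNB did. AP-1 dimers bind TGACTCA, and dimers with ATF or CREB proteins bind TGACGTCA; JUN is known for a variant, TGACATCA, through which JUN and ATF2 act on its own promoter. The 250 bases before the RefSeq start (GRCh38.p14) are given 5′ to 3′ on the gene's strand, with matches to these 3 motifs, searched on both strands, in capitals.
JUN (chr1:58784048-58784297, minus strand): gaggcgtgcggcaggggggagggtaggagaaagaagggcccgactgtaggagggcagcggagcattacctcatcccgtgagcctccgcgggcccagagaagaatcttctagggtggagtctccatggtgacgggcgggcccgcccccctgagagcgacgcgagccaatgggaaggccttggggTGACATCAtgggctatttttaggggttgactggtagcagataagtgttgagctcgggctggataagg
ATF3 (chr1:212565157-212565406, plus strand): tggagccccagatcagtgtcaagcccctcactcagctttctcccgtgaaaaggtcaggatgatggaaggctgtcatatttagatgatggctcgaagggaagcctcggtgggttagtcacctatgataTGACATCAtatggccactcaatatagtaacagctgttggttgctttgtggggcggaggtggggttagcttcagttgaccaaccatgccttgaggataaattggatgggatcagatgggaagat
JUND (chr19:18281623-18281872, minus strand): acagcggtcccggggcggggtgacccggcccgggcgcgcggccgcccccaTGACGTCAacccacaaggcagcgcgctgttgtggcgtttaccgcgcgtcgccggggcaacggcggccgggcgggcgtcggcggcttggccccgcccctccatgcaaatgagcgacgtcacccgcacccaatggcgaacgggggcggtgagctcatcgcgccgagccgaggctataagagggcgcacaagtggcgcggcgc
JUN and ATF3 both held TGACATCA, with the first base at -67 and -123 from the start site, and 2.61% of the 35116 promoter windows of 300 bases held it. JUND held TGACGTCA, with the first base at -200, as did 1.85% of windows. FOSL2 held TGACTCA with the first base at 5, as did 4.95% of windows. The windows of FOS, FOSB and JUNB, and that of a second ATF3 start, held 0 of these motifs. FPKM are given per gene symbol, so which ATF3 start was used in these cells is not known. No window is shown for FOSL1. No match overlapped another in these windows, and a match of letters does not show that a factor binds there.

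By root mean square difference between mean-centred log2 profiles over the 5 libraries, the genes most like FOSL1 among 8676 with a mean of at least 5 FPKM were CHAC1 (0.06), SNORD2 (0.09) and SLC2A6 (0.11). CHAC1, a glutathione-degrading enzyme induced by ATF4, stood at 4.81, 5.72 and 2.10 FPKM in knockdown libraries 1, 2 and 3, and at 10.7 and 5.83 FPKM in control libraries 1 and 2. Those most like JUN were SLC12A2 (0.06), a sodium, potassium and chloride cotransporter, PCNX1 (0.06) and SNORD42B (0.06). None of these 6 genes passed (limma adjusted p from 0.410 to 0.850).

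Kinases and promoter factors that act on FOS and JUN were measured as a list of 24 genes, of which 23 were tested, 8 higher and 15 lower, with 0 past the threshold and a median of -0.01 against 0.01 for all genes. ELK4, a ternary complex factor that binds the FOS promoter with SRF, was at 8.15, 10.6 and 10.4 FPKM in knockdown libraries 1, 2 and 3, and at 6.34 and 6.12 FPKM in control libraries 1 and 2, a log2 difference of 0.60 (limma adjusted p = 0.387). The others of smallest p were MAPK14, the p38 alpha kinase (0.36), BRAF (0.48) and MAP2K2, an activator of ERK (0.24), with limma adjusted p from 0.406 to 0.482. Over the whole list the groups did not overlap for 4 higher genes, these 4, and for 4 lower ones, against 32% of all genes tested in either direction. The lower ones, named after their values were seen, were the kinases MAP2K1 (-0.19) and MAPK7 (-0.29) and the ternary complex factors ELK1 (-0.27) and ELK3 (-0.24), so ELK4 and its relatives lay on opposite sides. With array weights 13 genes of the list were higher and 10 lower, and 2 of 23 passed (MAPK14 and ELK4), where 11.7% of all genes tested did. Of 9 genes of mRNA and protein turnover of AP-1, 8 were higher and 1 lower (median 0.13), where 51.3% of all genes tested were higher, and 0 passed. The split was 6 higher and 3 lower after rescaling to an equal FPKM sum and also without knockdown library 3. The median of these 9 genes was 0.05 without control library 2, and -0.01 (set A) and 0.26 (set B) within the sets. ZFP36, which destabilises FOS and cytokine mRNAs, was the lower one, at 15.7, 14.1 and 13.8 FPKM in knockdown libraries 1, 2 and 3 and 16.4 and 18.1 FPKM in control libraries 1 and 2. The other genes of smallest p, DET1 (0.34), ZFP36L1 (0.28) and the ubiquitin ligase RFWD2 (0.19), also called COP1, did not pass.

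Of 16 bZIP dimer partners, 12 were tested, 7 higher and 5 lower (median 0.06), and 0 passed. DDIT3, a stress-induced partner, differed by 0.35, MAFK by -0.31, and ATF2, a partner of JUN, by 0.19. Among 26 other early-response genes, 20 were tested, 8 higher and 12 lower (median -0.09), and 0 passed. DUSP6, an ERK phosphatase that ERK itself induces, was at 16.1, 20.4 and 16.3 FPKM in knockdown libraries 1, 2 and 3, and at 37.1 and 25.3 FPKM in control libraries 1 and 2, a log2 difference of -0.79 (limma adjusted p = 0.383). DUSP5, another ERK phosphatase, went the other way at 0.86, and HBEGF, an EGF receptor ligand, and GADD45B differed by -0.54 and -0.30. Over the whole list the groups did not overlap for 2 higher and 4 lower genes of 20, where 32% of all genes tested did not overlap. With array weights 3 of the 20 passed (DUSP5, GADD45B and HBEGF), where 11.7% of all genes tested did.

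Known keratinocyte targets of AP-1 had log2 differences from -1.81 to 2.16, a wider range than any other of these lists. Of 33 genes 27 were tested, 9 higher and 18 lower, with a median of -0.26 against 0.01 for all genes, and 0 passed. Groups did not overlap for 8 that were higher and 10 that were lower (16.2% and 15.8% of all genes tested), and 7 were higher and 8 lower at an unadjusted p under 0.05 (6.22% and 5.48% of all genes tested). The list was chosen with earlier results of these data known, so these counts are a description and carry no test. PLAUR, the urokinase receptor, averaged 12.5 ± 0.78 FPKM (SD, n = 3) in knockdown and 23.3 ± 2.43 FPKM (SD, n = 2) in control. CCND1, cyclin D1, averaged 120.7 ± 13.5 FPKM (SD, n = 3) in knockdown and 204.1 ± 7.49 FPKM (SD, n = 2) in control. HBEGF, also of this list, was at 5.00, 6.04 and 5.94 FPKM in knockdown libraries 1, 2 and 3 and 9.07 and 7.79 FPKM in control libraries 1 and 2. S100A9 was on the other side, at 16.8 ± 2.86 FPKM (SD, n = 3) in knockdown and 8.16 ± 0.65 FPKM (SD, n = 2) in control. The limma adjusted p of these 4 ran from 0.372 to 0.387, and with array weights 11 of the 27 passed, where 11.7% of all genes tested did. The 27 targets had a median of -0.26 over set A alone, and -0.07 over set B.

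Of 22 stress-response genes downstream of ATF4 and around ATF3, 20 were tested, 8 higher and 12 lower (median -0.02), and 0 passed. DDIT4 averaged 503.1 ± 14.4 FPKM (SD, n = 3) in knockdown and 410.4 ± 56.5 FPKM (SD, n = 2) in control, a log2 difference of 0.30 (limma adjusted p = 0.465). CHAC1 differed by -0.93, CEBPG by -0.18 and DDIT3 by 0.35, none past the threshold.

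**Figure D5:**
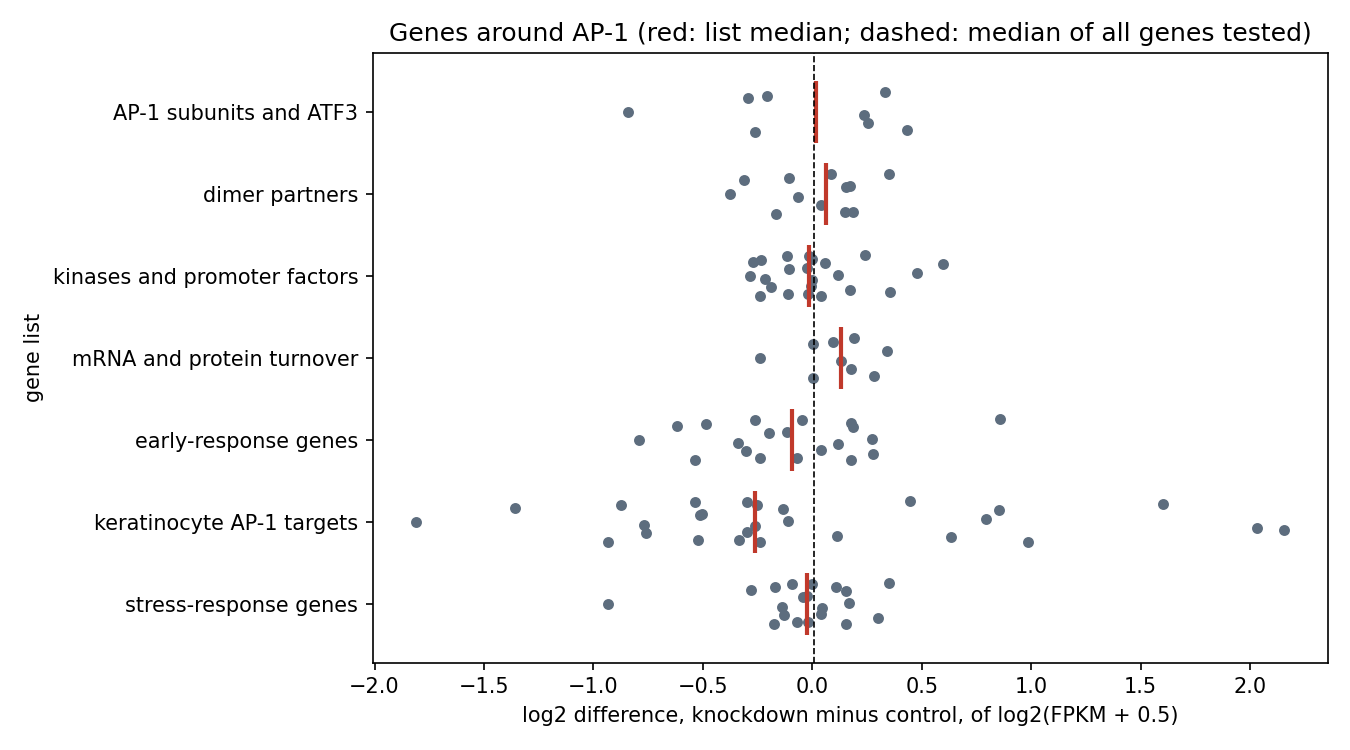
Log2 difference, knockdown minus control, of log2(FPKM + 0.5) for each tested gene of the AP-1 set and of 6 lists around it, with the list medians in red and the median of all genes tested dashed. Medians lie between -0.26 (keratinocyte AP-1 targets) and 0.13 (mRNA and protein turnover), and the targets spread widest.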

How the data were processed

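RNA sequencing of HaCaT cells was analysed in 3 AHNAK knockdown and 2 control libraries, grouped by their labels. The authors deposited FPKM values with 1 row per gene symbol. Per the submitters' processing notes, HISAT2 2.0.1 and StringTie 2.0.6 were used; builds GRCh38 and mm9 are named without a role, and no source used here gives the annotation or the strand setting. FPKM are not counts, so no count test was run, and the depth is unknown. The scale of analysis was log2(FPKM + 0.5). A mean of 1 FPKM or more was required, which 12196 genes met. Groups were compared with limma 3.58.1 in R 4.3.3 (eBayes with an intensity trend, no covariate) and Benjamini-Hochberg adjustment over all genes at 0.05. Differences on this scale understate changes of low genes. Simulated data with known differences were used to test the fit.

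The members and the lists were chosen with earlier results of these data known. Named genes were the 8 members, AHNAK, the 4 genes of smallest p in each list and the 3 genes most like the 2 members of widest range. A gene on 2 lists was counted in both, and 1 gene that this rule names is not reported here. A split of 2 against 3 libraries has 10 arrangements, so exact permutation could not go below 0.1, and sums and shares are given without p-values. The fit was repeated with other pseudocounts, low-value filters, scalings and variance models, with array weights, a replicate block, a term for the set, a GC content and length correction (loess, span 0.3, GENCODE release 29, which 96.5% of tested genes matched) and each library left out. Coordinates are from GENCODE release 29 (GRCh38) and promoter sequences from RefSeq (GRCh38.p14).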

Additional observations from a re-analysis of the deposited data

How the results depend on the processing

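Between the sets 4 of the 8 members (FOSL2, JUN, JUND and ATF3) changed sign. Genes past the threshold over all genes numbered 0 in limma and 1 with a pseudocount of 1, without an intensity trend and with robust empirical Bayes, 1428 with array weights and 0 to 10 when each library was left out; 10 passed without control library 1. Of the members, 1 passed with array weights (FOSB, at 0.59), and 0 passed in every other fit. FOSB fell under the filter at a mean of at least 5 FPKM. Leaving out each library gave JUN from -0.13 to 0.60 and FOSL1 from -1.24 to -0.44. Within set A and set B the log2 differences were 0.22 and 0.74 for FOSB, -1.45 and -0.018 for FOSL1, 0.021 and -0.60 for FOSL2, -0.32 and 0.98 for JUN, -0.049 and -0.41 for JUNB, 0.032 and -0.76 for JUND, and -0.083 and 0.70 for ATF3, and the cause was not tested. The JUN-family share of AP-1 FPKM differed by 4.20 percentage points, or 8.49 (set A) and -1.43 (set B) within the sets. The FOSL1 share of FOS-family FPKM differed by -11.2 points, or -25.9 (set A) and 7.72 (set B) within the sets. Rescaling to an equal FPKM sum moved the median of all genes to -0.04 and changed the split at an unadjusted p under 0.05 to 507 higher and 820 lower, against 759 and 668.

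The labels do not pair same-numbered libraries. Over genes tested, deviations from group means of knockdown libraries 1 and 2 correlated with those of control libraries 1 and 2 at -0.06 and -0.58. With 2 controls, the deviations of control library 1 mirror those of control library 2, so these values cannot decide on pairing. With the replicate block 0 genes and 0 members passed, and the member differences were 0.42 for FOS, 0.49 for FOSB, -0.48 for FOSL1 and 0.32 for JUN. Knockdown library 3 has no control of its number, so these differences equal those with that library left out. With the block 977 genes had an unadjusted p under 0.05, against 1427 without it. Read totals are unknown, which limits what can be said of FOSB, at 0.87 to 1.80 FPKM.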

Other observations

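The collagenase genes, whose promoters are the classic place where AP-1 binding was described, were named here after their values had been seen. MMP13 stood at 7.78, 18.1 and 12.9 FPKM in knockdown libraries 1, 2 and 3, and at 6.92 and 1.87 FPKM in control libraries 1 and 2, and it had the library order of DUSP5 and IVL, with knockdown library 2 highest and control library 2 lowest. ELK4, MAPK14, BRAF and ATF2 also had this order, and the genes that share it were picked after their values had been seen. Of genes tested, 15.8% had these extremes, and the share with the full order is not given here. MMP1 stood at 3.11, 10.2 and 3.72 FPKM in knockdown libraries 1, 2 and 3, and at 3.08 FPKM in control library 1, while it was listed at 0 in control library 2. The log2 difference of MMP13 was 0.51 (set A) and 2.97 (set B), and 58.6% of all genes tested had the larger size in set B. SERPINB2, a protease inhibitor of activated keratinocytes that was likewise named after its values had been seen, was at 43.7, 127.0 and 72.7 FPKM in knockdown libraries 1, 2 and 3, and at 271.8 and 133.4 FPKM in control libraries 1 and 2. Its log2 difference was -2.26 (set A) and -0.07 (set B). None of the genes named here passed in limma without weights. With array weights MMP13, IVL, DUSP5, ELK4 and MAPK14 passed, as 11.7% of all genes tested did.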
